A study of Sus scrofa with 3 samples.

Results

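In visceral adipose tissue of pigs on a diet rich in fat and cholesterol (HFC), 70 of 22826 mRNA genes were low only in the library of castrated, testosterone-treated animals. A gene was counted when its value was at least 20 UQRPKM both in intact male pigs (IM) and in castrated male pigs (CM) and both values were at least 2 times that in castrated pigs with testosterone replacement (CMT). UQRPKM is a count of reads per kilobase of gene, scaled by the upper quartile of reads over genes in the library, so levels of different genes can be compared. The floor was met in IM and CM by 9933 mRNA genes, and the 70 genes were 0.705% of them. The genes were chosen by their values in all 3 libraries, so the low CMT values are given below as a description only.

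The animals were male Chinese Wuzhishan miniature pigs, a small breed used as a model of diet-induced adiposity, obtained at 6 to 7 months of age. The testes were removed in the CM and CMT groups, while sham surgery left those of IM pigs in place. Testosterone propionate in corn oil, at 10 mg/kg, was given to CMT pigs once a week by intramuscular injection. The 3 groups received the HFC diet for 12 weeks, and no group on a standard diet is among the samples. The tissue was retroperitoneal fat, and RNA of the pigs of a group was mixed into 1 library, from 4 pigs by the study's methods and from 4 to 6 by the sample labels. No difference between groups therefore has a replicate check, no test between conditions was possible, and corn oil alone was not given to IM or CM pigs as far as the methods say.

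White adipocytes store triglyceride in droplets, make part of their fatty acids themselves and desaturate them before storage. Fat also holds vessels, blood cells, immune cells and progenitors. In bulk tissue, fewer cells of a type and less RNA per cell cannot be told apart.

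The reads behind the values, recovered from the smallest steps of the deposited values, numbered 15106608 (CMT) to 16611931 (IM) per library. Where 3 values of a gene follow each other below, they are those of IM, CM and CMT in this order. Adipocyte markers were high in every library, led by ADIPOQ (adiponectin) with 74928, 69193 and 63873 UQRPKM, while CIDEA was listed at 0. The libraries also differed in markers of other tissues. The summed level of the skeletal muscle markers was 96.6 (IM), 79.8 (CM) and 6661 (CMT) UQRPKM, and 8 of 8 markers that could be compared were higher in CMT. TNNT3, CKM and MB were listed at 0 in every library. The summed liver markers stood at 2557, 9850 and 1737 UQRPKM, most of it APOA1 in IM and CMT, and the summed mesothelium markers at 125, 239 and 559. Kidney markers came to 0, 0 and 0.391 UQRPKM. The part of these differences in the results below was not tested.

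The 70 genes ran from 20.01 to 17481 UQRPKM by the lower of their IM and CM values. A total of 36 lay under 50, 15 between 50 and 200 and 19 at 200 or more. Their median was 48.0 UQRPKM, against 115 in the other 9863 genes at the floor. Together they took 0.871% (IM), 1.11% (CM) and 0.411% (CMT) of the mRNA reads. SCD and CA3 alone held 76.5%, 80.6% and 80.3% of these reads.

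**Figure D1:**
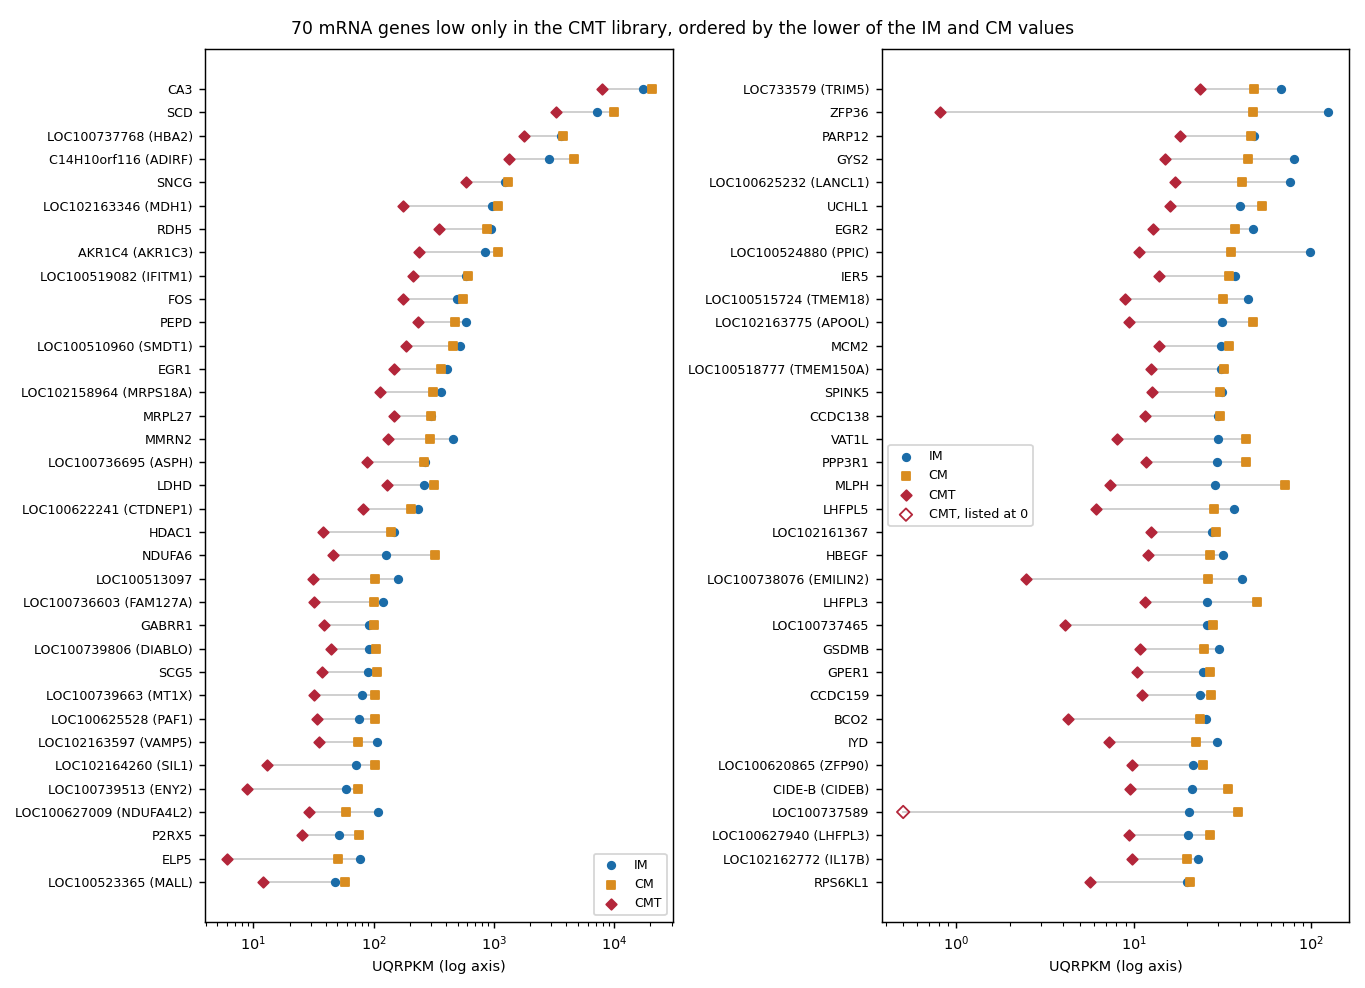
Values of the 70 genes in the IM (circles), CM (squares) and CMT (diamonds) libraries in UQRPKM on a log axis, 1 library per group, ordered by the lower of the IM and CM values, with matched names in brackets. The levels run from CA3 at 17481 in IM down to RPS6KL1 at 20.01, and the open diamond marks LOC100737589, listed at 0 in CMT and drawn at the left edge.

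The gap to CMT was narrow for most of the genes. The lower of IM and CM stood 2 to 3 times above CMT in 48 genes, 3 to 5 times in 13, 5 to 11 times in 7 and further above in 2, with a median of 2.47 times. MRPL27 (2.005 times), LOC100737768 (2.013) and LOC100627009 (2.015) lay just inside the limit, and TCF19, SLC25A23 and LOC100627444 just outside it at 1.998, 1.997 and 1.991 times. At the floor, RPS6KL1 (20.01 UQRPKM in IM), LOC102162772 (20.11 in CM) and LOC100627940 (20.17 in IM) lay just inside, and LOC100518411 (19.95 in CM), LOC102160080 (19.6 in IM) and GFI1 (19.5 in IM) just outside. Of all mRNA genes at 20 UQRPKM in IM, 2.37% were at least 2-fold lower in CMT, and of those at 20 in CM, 3.06%. These comparisons share the CMT library.

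A rule of the same form was met in each library. With IM as the low library it found 57 genes (0.577% of those at the floor) and with CM as the low library 59 (0.593%). These counts lie near the 70 genes of CMT.

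Several of the genes with the highest levels are known from adipocytes. CA3, carbonic anhydrase 3, a cytosolic enzyme abundant in fat and in skeletal muscle, had 17481 (IM), 20443 (CM) and 7984 (CMT) UQRPKM. SCD, the desaturase that makes oleate from stearate, had 7188, 9909 and 3308. C14H10orf116, the pig gene matched to human ADIRF (adipogenesis regulatory factor), had 2864, 4607 and 1340. All 3 genes followed the order CM, IM, CMT. SNCG, gamma-synuclein, a small protein found in neurons and adipocytes, had 1237 (IM), 1302 (CM) and 583 (CMT) UQRPKM. CIDE-B, of the CIDE family of lipid droplet and lipoprotein proteins, was far lower at 21.3, 34.0 and 9.56, from 25, 38 and 11 reads. By the exact 95% Clopper-Pearson interval on reads, which covers counting error only, the log2 ratio of CM to IM was 0.46 (0.45 to 0.48) for SCD, 0.23 (0.21 to 0.24) for CA3 and 0.69 (0.60 to 0.77) for C14H10orf116. For CIDE-B the interval of this ratio ran from -0.09 to 1.46, so its difference between IM and CM was not detectable at this depth. Other carbonic anhydrase genes, 8 in number, were read by the limits given in the next paragraph. Against IM, 3 were lower in CMT and 0 were higher. Against CM, 1 was lower and 2 were higher. CA5B alone was lower than in both.

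Other genes of lipid storage were set beside SCD and CIDE-B in lists of pathway genes chosen after the 70 genes were known. In these lists a gene was read when it had at least 1 UQRPKM in every library, and it was called at a fold of 1.5 or more. Over all 13858 mRNA genes at that floor, 11.6% were called lower in CMT than in IM, 9.68% lower than in CM and 4.88% lower than in both, while 8.42%, 9.19% and 3.84% were called higher. Of 16 genes of fatty acid synthesis and desaturation other than SCD, 6 were lower in CMT than in IM, 4 lower than in CM and 3 lower than in both, and 0 were higher than in either. The 3 were THRSP, ACLY and ACACA, named after their values were seen. Their list had its lowest value in CMT in 13 of the 16 genes. The median log2 ratio of the 16 genes was -0.53 against IM and -0.25 against CM, beside -0.08 and -0.02 over all mRNA genes.

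The 4 most abundant of them differed among themselves. TECR, the last enzyme of the cycle that lengthens very long fatty acids, had 15412, 14626 and 11691 UQRPKM in IM, CM and CMT. FASN, fatty acid synthase, had 10283, 9236 and 8276. Neither passed the 1.5-fold limit against IM or CM. THRSP, a protein that promotes lipogenesis, had 5704, 5330 and 2896 UQRPKM. ACLY, the enzyme that makes cytosolic acetyl-CoA from citrate, had 6272, 3879 and 2007. ACLY was thus already lower in CM than in IM, whereas SCD was higher in CM. SREBF1, a main regulator of these genes, was listed at 0 in every library.

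**Figure D2:**
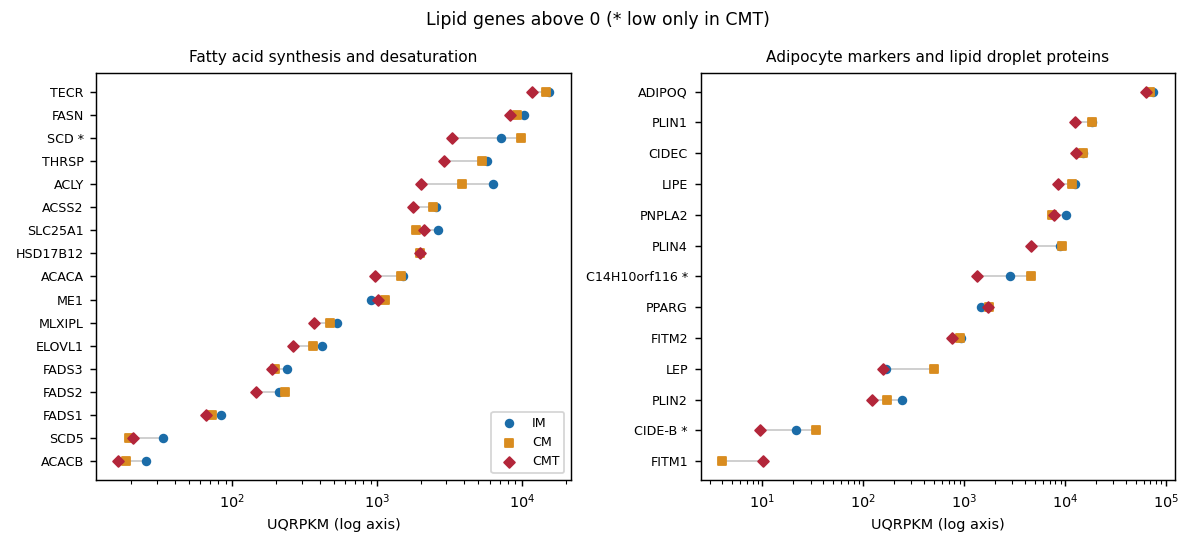
Levels in UQRPKM on a log axis of fatty acid synthesis genes (left) and of adipocyte markers with lipid droplet proteins (right), 1 library per group, for genes above 0; a star marks genes low only in CMT. SCD (3308 in CMT), C14H10orf116 (1340) and CIDE-B (9.56) stand at least 2-fold below IM and CM, and ADIPOQ stays between 63873 and 74928.

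Lipid droplet proteins other than CIDE-B also had their lowest values in CMT, in 5 of the 5 genes read, with medians of -0.56 against IM and -0.51 against CM on the log2 scale. PLIN1, the main coat protein of the adipocyte droplet, had 18397, 18587 and 12504 UQRPKM in IM, CM and CMT. CIDEC, which drives the fusion of droplets, had 14996, 15020 and 12692. PLIN4, another droplet coat protein, had 8944, 9349 and 4585 and was the only gene of the list beside CIDE-B to pass the 1.5-fold limit against both. The adipocyte markers share PLIN1, PLIN4 and CIDEC with the droplet list, so these lists are not separate. Of 8 adipocyte markers other than C14H10orf116, 1, again PLIN4, was lower in CMT than in both, with medians of -0.32 and -0.36. These medians lie below those of all mRNA genes.

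RDH5, a retinol dehydrogenase known from the visual cycle, had 952 (IM), 869 (CM) and 352 (CMT) UQRPKM. BCO2, the mitochondrial enzyme that cleaves carotenoids off centre, had 25.8, 23.7 and 4.27, from 80, 70 and 13 reads. Of 9 other genes of carotenoid and retinoid handling, 1 was lower in CMT than in both. RETSAT, retinol saturase, the most abundant of the list, had 18777, 17050 and 13803 UQRPKM. The low level of RDH5 and BCO2 was therefore not shared by most of the list. AKR1C4, of the aldo-keto reductases that interconvert steroids, had 844 (IM), 1075 (CM) and 238 (CMT) UQRPKM, and AKR1CL1, the other gene model with the same human match, had 1454, 1167 and 604. These paralogs resemble each other in sequence, so reads may be split between them.

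The gene with the largest measured gap was ZFP36 (tristetraprolin), which binds AU-rich elements and promotes decay of cytokine mRNAs. It had 125 (IM), 47.5 (CM) and 0.810 (CMT) UQRPKM, from 316, 114 and 2 reads. The log2 ratio of CMT to CM was -5.87, with an interval from -8.94 to -3.99. ZFP36 was also lower in CM than in IM, by a log2 ratio of -1.40 (-1.72 to -1.09). A second gene model matched to ZFP36, LOC100623625, had 62.4, 16.7 and 1.54 UQRPKM and thus the same order.

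ZFP36 is an immediate early gene, one of those transcribed within minutes of a stimulus without new protein synthesis. EGR1, a zinc finger transcription factor of the same class, had 406 (IM), 363 (CM) and 148 (CMT) UQRPKM. EGR2 had 47.0, 37.6 and 12.8. FOS, a subunit of the AP-1 transcription factor, had 493, 552 and 174. IER5, an immediate early response gene, had 37.1, 34.4 and 13.9. In these 4 genes IM and CM lay within 1.5-fold of each other, unlike ZFP36.

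**Figure D3:**
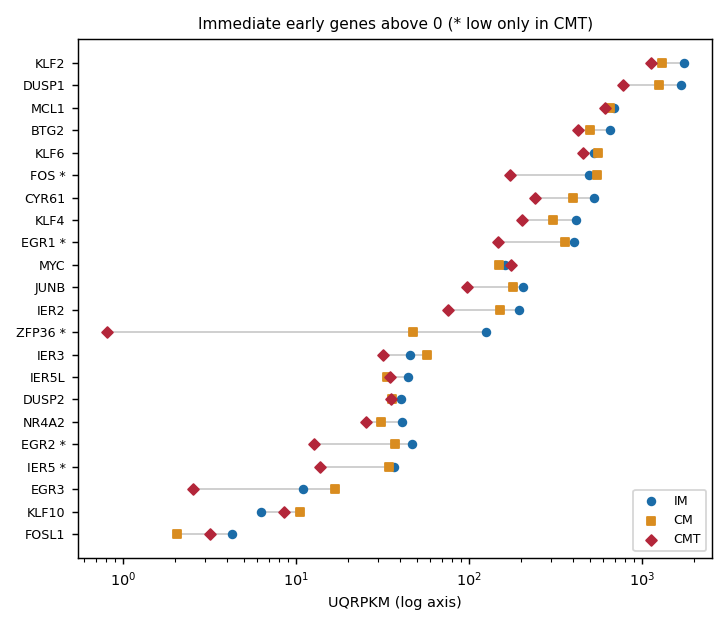
Levels in UQRPKM on a log axis of the 22 immediate early genes above 0 in any library, 1 library per group, ordered by mean level; a star marks genes low only in CMT. CMT is the lowest library for most of them, as in DUSP1 (782) and FOS (174), and ZFP36 is the far point at 0.810, while MYC is highest in CMT at 175.

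Other immediate early genes were read as a list, drawn up because ZFP36, EGR1, EGR2, FOS and IER5 were known to be among the 70. Of 17 such genes outside the 70, 9 were lower in CMT than in IM, beside 11.6% of all mRNA genes, and 7 lower than in CM, beside 9.68%. A total of 6 were lower than in both, beside 4.88%, and 0 were higher than in both, beside 3.84%, and 13 had their lowest value in CMT. The medians on the log2 scale were -0.62 against IM and -0.28 against CM.

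The most abundant of the 17 show the range. KLF2, a transcription factor of endothelium and other cells, had 1747 (IM), 1314 (CM) and 1127 (CMT) UQRPKM. DUSP1, a phosphatase that turns off MAP kinases, had 1686, 1253 and 782. MCL1, a survival protein of the BCL2 family, had 689, 658 and 612, and BTG2, an antiproliferative gene, had 660, 502 and 431. DUSP1 alone of these 4 was at least 1.5-fold lower than both. The other genes lower than both, named after their values were seen, were CYR61, KLF4, JUNB, IER2 and EGR3. CYR61, a matricellular protein, had 533, 401 and 242 UQRPKM. JUNB, a partner of FOS, had 207, 180 and 97.8. In CYR61, KLF4, JUNB and IER2 the CM value lay between IM and CMT, whereas FOS and EGR3 were highest in CM.

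Hemoglobin transcripts, a trace of red blood cells in the tissue, were also lower in CMT. LOC100737768, matched to HBA2, the alpha chain, had 3600 (IM), 3768 (CM) and 1788 (CMT) UQRPKM. HBB, the beta chain, was not among the 70 but had 4534, 4193 and 2331. All 3 red blood cell markers read, HBB, HBM and ALAS2, were lower in CMT than in IM by at least 1.5-fold, and 2 of them lower than in CM. MMRN2, a matrix glycoprotein of the endothelium, had 460, 293 and 130 UQRPKM. Of 12 other endothelial markers, 3 were lower in CMT than in IM and 0 lower than in CM, with medians of -0.26 and -0.01. PECAM1, the most abundant, had 4338, 4038 and 4735. TIE1, an endothelial receptor, was under the floor of the list, with 15.2 and 14.7 UQRPKM in IM and CM and a listing at 0 in CMT. The low value of MMRN2 was thus not found in most markers of its cell type.

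Immune genes among the 70 included PARP12, an interferon-induced ADP-ribosyltransferase, with 47.7, 46.2 and 18.3 UQRPKM in IM, CM and CMT. LOC733579, matched to TRIM5, a restriction factor of retroviruses, had 68.3, 47.9 and 23.6. Of 20 other interferon-stimulated genes, 8 were lower in CMT than in IM, 3 lower than in CM and 2 lower than in both, with 16 lowest in CMT. OAS1, the most abundant, had 2836, 1434 and 1502 UQRPKM and so was low in CM as well. Of 11 other PARP genes, 0 were called in either comparison, and of 12 MHC class II genes, which present antigen, 0 were lower or higher in CMT than in both. GSDMB, of the gasdermin family of pore-forming proteins, had 30.2, 24.99 and 10.9.

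Enzymes and mitochondrial proteins made up a further part of the 70 genes. LDHD, the mitochondrial D-lactate dehydrogenase, had 260 (IM), 317 (CM) and 128 (CMT) UQRPKM. LDHB, a subunit of L-lactate dehydrogenase and the most abundant of its list, had 19384, 19831 and 21482. GYS2, the liver type of glycogen synthase, had 80.7, 44.3 and 14.97 UQRPKM, from 319, 167 and 58 reads. GYS1, the muscle type, had 344, 372 and 269, and of 17 glycogen genes other than GYS2, 0 were lower in CMT than in both and 3 were higher than in both, beside 3.84% of all mRNA genes. The 3, named after their values were seen, were PYGM, PHKA1 and NHLRC1. PYGM, muscle glycogen phosphorylase, had 75.4, 57.9 and 449, in the library where skeletal muscle markers were high. PHKA1, a subunit of phosphorylase kinase, had 1.92, 1.51 and 4.42, and NHLRC1, the ubiquitin ligase malin, had 14.8, 14.8 and 35.4. IYD, which recovers iodide from iodotyrosines, had 29.6, 22.5 and 7.29 UQRPKM, from 29, 21 and 7 reads. Of 8 other genes of thyroid hormone and iodide handling, 1, the lipogenic THRSP, was lower in CMT than in both and 1, the deiodinase DIO3, was higher than in both.

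Receptors and signals among the 70 genes were mostly weakly expressed. GPER1, a membrane receptor for oestrogen, had 24.6, 26.9 and 10.4 UQRPKM in IM, CM and CMT, whereas ESR1, the nuclear oestrogen receptor, had 30.2, 30.4 and 33.3. GABRR1, a rho subunit of GABA receptors, had 91.9, 100.1 and 38.9. P2RX5, an ATP-gated channel, had 51.9, 74.8 and 25.5. P2RX4, the most abundant of the purinergic and GABA receptors, had 209, 217 and 205. Of 7 genes of that list other than GABRR1 and P2RX5, 1 was lower in CMT than in both and 0 were higher than in both. Their median log2 ratios were -0.47 against IM and 0.04 against CM. HBEGF, a ligand of the EGF receptor, had 32.2, 27.0 and 12.04 UQRPKM, from 30, 24 and 11 reads. PPP3R1, the regulatory subunit of calcineurin, had 29.6, 43.2 and 11.8, while its catalytic partner PPP3CB had 173, 204 and 172. Of 11 other calcineurin genes, 0 were lower in CMT than in either library.

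Genes of regulated secretion were read as a list because SCG5, UCHL1 and MLPH were on it. SCG5, a chaperone of a prohormone convertase, had 90.5 (IM), 107 (CM) and 37.2 (CMT) UQRPKM. UCHL1, a ubiquitin hydrolase of neurons and endocrine cells, had 39.8, 53.0 and 16.1. MLPH, melanophilin, which links RAB27A to a myosin motor, had 28.9, 71.3 and 7.38, from 20, 47 and 5 reads. In all 3 genes CM was the highest library. Of 10 other genes of the list, 1 was lower in CMT than in both and 0 were higher than in both. Against IM, 1 was lower and 1 higher, and against CM, 2 were lower and 2 higher. PAM, the most abundant, had 981, 914 and 1056. MCM2, a subunit of the replicative helicase, had 31.1, 34.5 and 13.9 UQRPKM. MCM3 and MCM4, the other subunits read, had their lowest values in CMT too, but neither was 1.5-fold lower than CM.

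The rule did not set the ratio of CM to IM directly, though both had to pass the same floor and the same limit against CMT. In the 70 genes its median on the log2 scale was 0.06, against -0.06 in the other 9863 genes. CM and IM lay within 1.5-fold of each other in 55 of the 70 genes and in 9098 of the other 9863. CM was at least 1.5-fold higher than IM in 6 genes (8.57%), where 3.25% of the genes at the floor were, and at least 1.5-fold lower in 9 genes (12.9%), where 4.6% were. The sets were not matched for level or read number. The lower of IM and CM had a median of 48.0 UQRPKM and 105 reads in the 70 genes, against 115 UQRPKM and 383 reads in the others. The counting interval of the log2 ratio of CM to IM included 0 for 38 genes, lay above it for 15 and below it for 17. The same counts in the other genes are not given here, so these cannot be read as particular to the 70 genes.

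**Figure D4:**
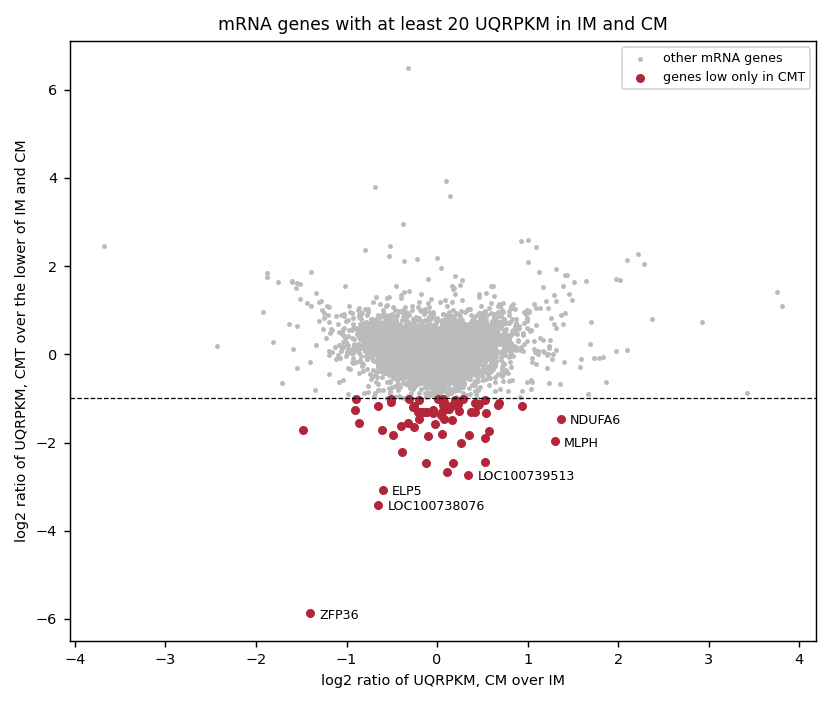
Log2 ratio of CM to IM against the log2 ratio of CMT to the lower of IM and CM, for mRNA genes with at least 20 UQRPKM in IM and CM, 1 library per group; the dashed line is the 2-fold limit. The genes low only in CMT (red) spread on both sides of a CM to IM ratio of 0, from LOC100524880 at -1.48 to NDUFA6 at 1.36, and LOC100737589, listed at 0 in CMT, is not drawn.

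The widest ratios of CM to IM belonged to NDUFA6 and LOC100524880. NDUFA6, an accessory subunit of respiratory complex I, had 126 (IM), 325 (CM) and 45.8 (CMT) UQRPKM, a log2 ratio of CM to IM of 1.36 (1.10 to 1.63). LOC100524880, matched to PPIC, a cyclophilin of the secretory pathway, had 98.7, 35.4 and 10.8, a log2 ratio of -1.48 (-1.91 to -1.06). Both names are carried by several gene models, described below. GYS2 was lower in CM than in IM by a log2 ratio of -0.86 (-1.14 to -0.59) and MMRN2 by -0.65 (-0.74 to -0.57).

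The 70 genes differed from the other genes at the floor in how they were annotated. A total of 30 (42.9%) carried a LOC symbol, a placeholder for a gene model without an assigned name, against 18.9% of the other genes. Their median recovered length was 1273 bases, against 2071. A recovered length is the shortest that fits the values, so it may be too short. The lower read number of IM and CM had a median of 105, against 383. The part of read numbers in the shorter lengths was not tested. The genes low only in IM had a LOC symbol in 45.6% of cases and those low only in CM in 59.3%, with median lengths of 903 and 1142 bases. The share of LOC symbols and the short length were thus found in each of the 3 sets. LOC symbols are given here with the human gene they were matched to by the study's annotation or by gene identifier in Sscrofa 11.1. With the 40 genes that carry other symbols included, 66 of the 70 genes had a name.

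Another gene model above 0, outside the 70, was matched to the same name for 23 of the 70 genes. There were 28 such models in all. Of these 23 genes, 16 had a LOC symbol. In 13 of the 23 names the other models, added together, were highest in CMT, the library where the gene of the 70 was lowest. In 6 they were lowest in CMT and in 4 between. Of the 28 other models, 7 had at least 20 UQRPKM in CMT and at least 2 times the value of both IM and CM. A further 2 were at least 2-fold lower in CMT than in both. The same shares among the other genes at the floor, or among genes low only in IM or CM, are not given here. These counts therefore cannot be read as particular to the 70 genes.

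ENY2, a subunit of the SAGA and TREX-2 complexes, shows the opposite course of its models. LOC100739513 had 58.5 (IM), 74.3 (CM) and 8.80 (CMT) UQRPKM, whereas the model named ENY2 had 28.6, 20.03 and 109. Their sum was 87.1, 94.3 and 118. SMDT1, a subunit of the mitochondrial calcium uniporter, gave nearly equal sums. LOC100510960 had 518, 457 and 186 UQRPKM and LOC100737924 had 343, 413 and 677, which add to 862, 870 and 863. PEPD, a dipeptidase that releases proline, had 590, 477 and 235, and the second model LOC100739300 had 91.2, 84.8 and 277. The values of MRPL27, a protein of the mitochondrial ribosome, were 298, 300.2 and 149, and those of its second model LOC100737651 were 105, 79.4 and 200.3.

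NDUFA6 had 3 models. LOC100156627 had 90.4, 77.6 and 349 UQRPKM in IM, CM and CMT, and LOC100737997 had 516, 40.2 and 222. The sum of all models of NDUFA6 was 733, 443 and 617, with the lowest value in CM. Among 30 other subunits of complex I, 0 were called in CMT against IM and 1 was lower against CM. The high value of NDUFA6 in CM was likewise absent from the sum of its models. For PPIC, the sum of 4 models was 171, 158 and 188, whereas LOC100524880 alone had 98.7, 35.4 and 10.8.

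HDAC1, a histone deacetylase of the NuRD, SIN3 and CoREST complexes, had 148, 138 and 38.1 UQRPKM, and the second model LOC100622482 had 126, 121 and 181. The sum was 274, 260 and 219, within 1.5-fold in each comparison. Of 21 other genes of the HDAC1 complexes, 0 were lower in CMT than in both and the median log2 ratios were 0.02 against IM and 0.02 against CM. LOC102163346, matched to MDH1, cytosolic malate dehydrogenase, had 960, 1087 and 174, and MDH1 itself had 2997, 3281 and 2621. LOC100738076, matched to the matrix protein EMILIN2, had 41.1, 26.2 and 2.47, from 51, 31 and 3 reads, beside 379, 319 and 342 for the model named EMILIN2. LOC100519082, matched to IFITM1, an interferon-induced membrane protein, had 583, 614 and 210, and its 3 other models differed among themselves in direction. IFITM genes are a family of near-identical copies, and their single values are uncertain.

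**Figure D5:**
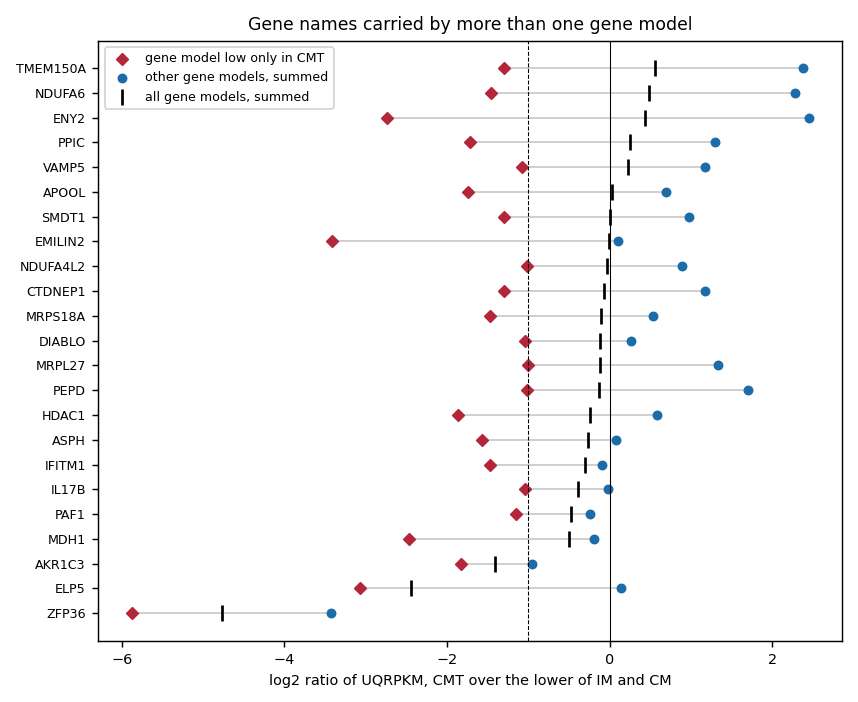
Log2 ratio of CMT to the lower of IM and CM in UQRPKM, 1 library per group, for the 23 names with another gene model above 0, showing the model low only in CMT (diamonds), the other models added together (circles) and the sum (bars); the dashed line is the 2-fold limit. Most sums lie near 0, as for SMDT1 and EMILIN2, and ZFP36, ELP5 and AKR1C3 (gene AKR1C4) stay beyond the limit.

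In 7 further names the other model was highest in CMT. LOC100518777, matched to the membrane protein TMEM150A, had 31.1, 32.2 and 12.6 UQRPKM, and LOC100627959 had 8.95, 15.6 and 46.5. LOC102163597, matched to VAMP5, a vesicle SNARE protein, had 106, 74.5 and 35.4, and LOC100628224 had 77.9, 47.8 and 108. LOC102158964, matched to MRPS18A of the mitochondrial ribosome, had 360.0, 314 and 113, against 368, 379 and 533 for the model of that name. LOC100622241, matched to the nuclear envelope phosphatase CTDNEP1, had 235, 202 and 82.3, against 91.9, 85.9 and 194 for LOC100519213. LOC102163775, matched to APOOL, a protein of the MICOS complex of mitochondrial cristae, had 31.6, 46.9 and 9.40, against 38.8, 41.7 and 62.5 for LOC100153260. LOC100739806, matched to DIABLO, a mitochondrial protein that binds the caspase inhibitor XIAP, had 91.7, 105 and 44.5, against 145, 155 and 173 for DIABLO. LOC100627009, matched to NDUFA4L2, a mitochondrial protein induced by hypoxia, had 108, 58.4 and 28.96, against 47.5, 61.6 and 88.4 for NDUFA4L2. In these 7 names one model was lowest and the other highest in CMT. Of 7 genes of the MICOS complex and the ATP synthase dimer, 0 were called in either comparison, and of 12 genes of XIAP and mitochondrial death proteins, 0 were called lower or higher in CMT than in both.

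In ASPH, PAF1 and IL17B the other model was not highest in CMT. LOC100736695, matched to the hydroxylase ASPH, had 265, 261 and 87.8, whereas LOC100526167 had 587, 627 and 620.3. LOC100625528, matched to PAF1 of the transcription elongation complex of that name, had 75.5, 103 and 33.9, and the larger LOC100514194 had 384, 312 and 264, lowest in CMT as well. Of the 5 other genes of the PAF1 complex in the table, 0 were called in either comparison. LOC102162772, matched to the cytokine IL17B, had 23.0, 20.1 and 9.78, beside 35.5, 45.2 and 35.1 for IL17B.

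After the models of a name were added together, 3 of the 23 names still met the rule and 20 did not. In 18 of the 23 names the sum in CMT lay within 1.5-fold of both IM and CM. The median log2 ratio of CMT was -1.59 against IM and -1.57 against CM in the 23 genes taken alone, and -0.29 and -0.13 in the sums. The 3 names that met the rule were ZFP36 with 188, 64.1 and 2.35 UQRPKM, the AKR1C genes with 2299, 2242 and 842, and ELP5 with 85.4, 95.2 and 15.7. ELP5 encodes a subunit of the Elongator complex, which modifies tRNA. Of 5 other Elongator genes, 1 was lower in CMT than in IM and 0 were lower than in CM. The values of ELP5 alone were 76.6, 50.4 and 5.98, and those of its second model LOC100517780 were 8.83, 44.8 and 9.76. Models have unequal lengths, so a sum of UQRPKM approximates the level of the gene, and how reads that match several places were treated is not given in the sources used here. The sum was chosen after the data were seen. One model of each name had been selected for its low CMT value and the others had not. Smaller gaps in the sums, and names that no longer met the rule, follow in part from this selection. The other 47 genes, among them SCD, CA3, FOS, EGR1, EGR2, IER5, RDH5, BCO2 and LDHD, had no other model above 0 by these matches, which do not cover every gene model.

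Some of the 70 genes, or the names they were matched to, lie beside each other in the Sscrofa 11.1 assembly. In it 65 of the genes could be placed, 47 by RefSeq and 18 only by their matched name. MMRN2, SNCG and the gene matched to ADIRF follow one another on chromosome 14. Their neighbours did not have low CMT values, with 57.5, 86.0 and 82.0 UQRPKM for BMPR1A and 904, 994 and 1001 for GLUD1. NDUFA6 and SMDT1 are adjacent on chromosome 5, TMEM150A and VAMP5 are separated by RNF181 on chromosome 3, and PAF1 and ZFP36 by MED29 on chromosome 6. SMDT1, TMEM150A, VAMP5 and PAF1 were placed by matched name only. Their positions may be those of the other model of the name (LOC100737924, LOC100627959, LOC100628224 and LOC100514194), not of the gene of the 70. The summed models of NDUFA6, SMDT1, TMEM150A, VAMP5 and PAF1 did not meet the rule, whereas those of ZFP36 did. RNF181 had 701, 727 and 695 UQRPKM. LOC100514373, matched to MED29, had 32.6, 0.633 and 0 and was thus low in CM as well as in CMT.

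The weakest of the 70 genes rest on few reads. In 9 genes IM or CM had under 30 reads, and 3 had under 4 reads in CMT. LOC100737589, which has no matched name, had 20.7 UQRPKM in IM and 38.7 in CM, from 23 and 41 reads, and 0 reads in CMT. The IM value was 7.51 times that of 3 reads in CMT, 2.75 UQRPKM. The upper end of the counting interval of the log2 ratio of CMT to IM was -2.49. LOC100737465, also without a matched name, had 25.9, 27.9 and 4.09, from 71, 73 and 11 reads. LOC102164260, matched to SIL1, a cofactor of the chaperone BiP, had 70.6, 102 and 12.98, from 50, 69 and 9 reads. LHFPL5, a membrane protein of hair cells in the ear, had 37.0, 28.3 and 6.12, from 74, 54 and 12 reads. LOC100523365, matched to MALL, a raft protein of the MAL family, had 48.0, 57.6 and 11.999, from 49, 56 and 12 reads. In these genes the CMT library lay well below the others, but a handful of reads sets each CMT value. LHFPL3 and LOC100627940, both matched to LHFPL3, were each among the 70 with 23, 42 and 10 reads and 11, 14 and 5 reads. The counting intervals of the log2 ratios of CMT to IM and to CM both lay below 0 for 68 of the 70 genes. The genes were chosen by these same ratios, so this count describes read numbers and is no separate support for the low CMT values. The exceptions were LOC102161367 with 9, 9 and 4 reads and LOC100627940 with 11, 14 and 5.

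VAT1L, a relative of a synaptic vesicle protein, had 29.9, 43.1 and 8.01 UQRPKM. SPINK5, a serine protease inhibitor of epithelia, had 31.5, 30.7 and 12.7. LOC100739663, matched to the metallothionein MT1X, had 79.2, 103 and 31.9, while MT-2B, another metallothionein, had 1559, 1007 and 1407 and was lowest in CM. The list of metallothioneins did not hold LOC100739663, and 4 of its genes were read. Of these, 1 was lower in CMT than in IM, 2 lower than in CM and 1 lower than in both, and 0 were higher than in either. LOC100513097, a model without a matched name, had 158, 103 and 31.6, with CM between IM and CMT. CCDC138, CCDC159 and the models matched to TMEM18, LANCL1, FAM127A and ZFP90 are drawn in the plot of all 70 genes.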

How the data were processed

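RNA-Seq of retroperitoneal fat gave 1 library of pooled RNA for each of IM, CM and CMT, grouped by sample title. The authors filtered single-end Ion Proton reads, mapped them to Sscrofa 10.2 with MapSplice and deposited modified RPKM values (UQRPKM), in which reads per kilobase are divided by the upper quartile of reads over genes in that library. The counting tool, annotation release and treatment of reads with several matches are not given in the sources used here.

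The values of 34570 genes were joined on gene with Python 3.11.15, pandas 2.3.3, numpy 2.4.6 and scipy 1.17.1. Whole reads were recovered for 20838 of 20838 genes above 0, to a relative tolerance of 2e-08, as the smallest numbers that fit values in all libraries for gene lengths up to 120000 bases. They may be too low by a common factor, and the recovered gene lengths too short by the same factor. They were used for depth, read numbers, gene lengths and intervals, not for the rule. This step was tested on simulated data. Ratios carry no pseudocount and exact 95% Clopper-Pearson intervals. With 1 library per group, no count test was run.

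The genes and lists were chosen with earlier results of these data known. Values were given for the 12 genes with the largest gap to CMT, the 12 with the highest lower value of IM and CM, those on a partner list and those nearest the limits, and for lists up to 4 genes with the highest mean. Further genes were named after their values were seen. Lists of lipid synthesis, droplet, carbonic anhydrase, lactate dehydrogenase, oestrogen receptor, EGF ligand and helicase genes were added after the 70 genes were known. Gene models were joined by symbol, gene identifier or human match, 43 of the 70 genes by symbol, 3 by identifier and 1 by synonym in RefSeq (Sscrofa 11.1). No sequence or promoter was used here. Some genes with their lists, and several lists of cell type markers, are not reported here.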

Additional observations from a re-analysis of the deposited data

How the results depend on the processing

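The number of genes low only in CMT, 70 or 0.307% of mRNA genes as reported, depended most on its limits. A fold of 1.5 gave 292 (1.28%) and a fold of 3 gave 22 (0.0964%). A floor of 10 UQRPKM gave 0.508%, a floor of 50 gave 34 (0.149%) and no floor gave 697 (3.05%). Scaling by the total of mRNA values left 60 genes, all of them among the 70, and median-ratio scaling 62, of which 61 were among the 70. A pseudocount of 1 left 65, counting intervals that exclude a fold of 1 left 68 and a minimum of 30 reads in IM and CM left 61, while all gene types gave 94. Adding gene models of one name, an alternative chosen after seeing the data, gave 50, of which 49 were names of the 70 genes and 1, DPP3, was not.

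Without a floor, 9.6% of mRNA genes were at least 2-fold lower in CMT than in IM and 10.8% lower than in CM. At a floor of 50 UQRPKM, 27 genes were low only in IM and 22 only in CM. The median log2 ratio of CM to IM in the 70 genes lay between 0.04 and 0.12 under the alternatives tried. For single genes of the 70 under scaling by the total or a pseudocount of 1, 136 ratios of CMT stayed within their counting interval. A list median has no such interval. Medians were recomputed only for the partner lists, which hold families and complexes of the 70 genes. Those of cell type markers and of lists added later, such as lipid synthesis and droplet genes, were not recomputed. A limit of 0.1 on the log2 scale was chosen after seeing the data. Among the recomputed lists reported here, medians shifted by more than this limit only with no floor and a pseudocount of 1. These were the retinoid list against CM (-0.11 to 0.00) and, against IM, the thyroid (-0.14 to -0.03), secretion (-0.19 to 0.00) and purinergic and GABA lists (-0.48 to -0.12), genes of the 70 included. The ratio of CMT to IM moved for CA3 and SCD under scaling by the total, by more than their very narrow counting intervals and with the same direction.

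Each group is 1 library, so leaving out a replicate was not possible. No paired analysis was possible because each group holds 1 library. The search of promoters for motifs was not run. At this depth, genes with few reads limit the precision, and differences between pigs cannot be seen.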

Other observations

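Genes of types other than mRNA met the same rule at a higher share. At least 20 UQRPKM in IM and CM was reached by 894 such genes, of which 24 (2.68%) were at least 2-fold lower in CMT than in both. They were 19 of 570 genes classed as miscRNA (3.33%), 2 of 302 classed as ncRNA (0.662%), 2 of 11 tRNA genes and 1 of 5 miRNA precursors. MIR29C, the precursor of a microRNA that targets collagen transcripts, had 76.3 (IM), 24.01 (CM) and 7.78 (CMT) UQRPKM, from 10, 3 and 1 reads, too few to read a difference between CM and CMT. LOC100739725, a miscRNA, had 27.7, 30.7 and 1.57 UQRPKM, from 72, 76 and 4 reads. LOC100515788, the most abundant of the 24, had 420.3, 287 and 134, from 310, 202 and 97 reads.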
